A study of Mus musculus with 54 samples.

Results

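The GABA interneuron genes described here are 10 markers of inhibitory interneurons and of their subclasses, chosen by name from the 47069 genes of the count table. They comprise the GABA-synthesizing enzymes Gad1 and Gad2, the calcium-binding protein gene Pvalb, the neuropeptide genes Sst, Vip, Npy and Cck, the serotonin receptor gene Htr3a, the membrane protein gene Lamp5 and the matrix protein gene Reln. Each had 1 row in the table. RNA-seq counts were compared between Mbd5+/GT mice and WT littermates, and between regions, in cortex, striatum and cerebellum. The question was whether transcripts change in the brain when Mbd5 is partly lost. The 18 mice, on a C57BL/6 background, were 8 weeks old and came from 3 litters, and each gave 1 library from each of the regions (54 in all). The 10 Mbd5+/GT mice (5 females) carried 1 copy of the gene trap pU-21B in the second intron of Mbd5, a hypomorphic allele present in every cell. The 8 WT mice (5 females) carried none. Litter 2 held 1 WT mouse beside 4 Mbd5+/GT mice, and the striatum libraries of WT mice 5 and 6 (mice are numbered within a genotype) were labelled as repeated.

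GABA is made from glutamate by GAD67 and GAD65, the proteins of Gad1 and Gad2, and most neurons that release GABA use either or both. In cortex and striatum, interneurons are sorted by what else they make: parvalbumin in fast-spiking cells, somatostatin and neuropeptide Y in cells that contact dendrites, VIP and the receptor of Htr3a in cells that mostly contact other interneurons, and LAMP5 and reelin in neurogliaform cells. None of the markers is limited to interneurons in whole tissue. Gad1 and Gad2 are also used by striatal projection neurons and Purkinje cells, Pvalb by Purkinje cells, Reln by cerebellar granule cells, and Cck and Lamp5 by cortical glutamatergic neurons. In bulk tissue, fewer cells of a type and less RNA per cell cannot be told apart.

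The genes are spread over chromosomes 2, 5, 6, 9, 10, 15 and 16 of GRCm38. Gad1 (chromosome 2, 70553072 to 70602014, plus strand), Gad2 (chromosome 2, 22622205 to 22693874, plus strand) and Lamp5 (chromosome 2, 136052239 to 136069917, plus strand) share a chromosome with Mbd5. Cck (121489824 to 121495694) and Htr3a (48899213 to 48911099) lie on the minus strand of chromosome 9. Sst is on the minus strand of chromosome 16 (23889573 to 23890958), Pvalb on that of chromosome 15 (78191114 to 78206400) and Reln on that of chromosome 5 (21884454 to 22344702). Vip is on the plus strand of chromosome 10 (5639218 to 5647617) and Npy on that of chromosome 6 (49822710 to 49829507). Reln shared 246 exon bases with the antisense gene Gm10475, so its reads are uncertain to that extent, since the strand setting of the counting is not given in the sources used here. The antisense genes next to Gad1 and Htr3a shared 0 exon bases with them.

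The 4 neuropeptide genes were all lower in WT cerebellum than in the other regions, and the sequence just upstream of each is shown for that reason. Sequences are from RefSeq (GRCm38.p6), 5′ to 3′ on the gene's own strand, at chr16:23890877-23890906 (Sst, minus), chr10:5639118-5639217 (Vip, plus), chr6:49822610-49822709 (Npy, plus) and chr9:121495695-121495794 (Cck, minus). Capitals mark TGACG or its reverse complement CGTCA, the short site of the cAMP response element, or the whole element TGACGTCA.
Sst: ggcgcctccttggcTGACGTCAgagagaga
Vip: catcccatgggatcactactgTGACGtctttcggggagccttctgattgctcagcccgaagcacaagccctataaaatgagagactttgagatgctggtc
Npy: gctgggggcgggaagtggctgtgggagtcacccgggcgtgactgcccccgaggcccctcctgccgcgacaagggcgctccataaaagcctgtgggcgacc
Cck: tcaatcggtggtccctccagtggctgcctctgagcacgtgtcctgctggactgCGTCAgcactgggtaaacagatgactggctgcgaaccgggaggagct
In the 250 bases before the start, on both strands, the whole element was found in Sst, starting at -48. A short site was found in Vip at -79, Cck at -47 and Gad2 at -33. The letters were absent from this window of Gad1, Pvalb, Npy, Lamp5 and Reln, and Htr3a was not searched here. Of 32851 mouse promoters searched in the same way, 17.8% held a short site, which includes those with the whole element, and 1.55% held the whole element. A match is a description of the letters only.

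The depth of the libraries ran from 25295973 to 49027399 counted reads (median 29073866). Mbd5, the trapped gene, was reduced in Mbd5+/GT mice of all regions. In cortex its CPM (counts scaled to the TMM-normalized library size, so that libraries are comparable) ran from 40.6 to 53.0 (median 45.8) in Mbd5+/GT and from 47.7 to 75.6 (median 67.9) in WT mice. In striatum it ran from 26.1 to 41.8 (median 37.2) against 35.5 to 61.7 (median 46.8), and in cerebellum from 29.8 to 65.7 (median 40.4) against 42.5 to 75.5 (median 54.6). The log2 differences were -0.49, -0.51 and -0.34 (adjusted p = 0.00012, 9.41e-05 and 0.00912, edgeR's quasi-likelihood test). The nearest pair among 219 pairs of libraries of the same group had a chi-square per gene of 8.26 (about 1 would be counting error alone), so no library was counted as a repeat of another.

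Several libraries stood apart from their region in markers of other cells, and the region differences that moved most without them are given both ways below. In cortex, 7 markers of striatal projection neurons (such as Drd1, Drd2 and Ppp1r1b) summed to 229.5 to 1860 CPM in WT and 289.2 to 1089 CPM in Mbd5+/GT mice. The 3 cortex libraries above 1500 CPM were all WT (mice 6, 2 and 4). The cortex library of Mbd5+/GT mouse 1 had 112 CPM of hypothalamus markers, where the other 17 had at most 18.9, and the fewest reads of cortical glutamatergic markers (725.7 CPM). In striatum the same markers summed to 1096 to 6965 CPM in Mbd5+/GT and 181.0 to 6653 CPM in WT mice, and 2 WT libraries (mice 7 and 2) lay below 1000 CPM. Hox genes, which pattern the hindbrain and spinal cord and are silent in the cerebellum, summed to 64.7 to 582 CPM in 4 cerebellum libraries (WT mice 7 and 2, Mbd5+/GT mice 9 and 10). In the cerebellum library of Mbd5+/GT mouse 9, 5 granule cell markers summed to 62.3 CPM and 5 Purkinje cell markers to 169.7 CPM, against medians of 3796 and 6436 CPM in its group, so the defining markers of the labelled region were nearly absent there.

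Per kilobase of exon, Sst was the highest of the 10 genes in cortex and striatum, and Pvalb in cerebellum. The length was that of all annotated exons of a gene together, 7639 bases for Gad1 and 721 for Sst, and the order depends on it. In plain CPM the WT cortex median was 454 for Gad1 and 128 for Sst. Over the 18 cortex libraries, the median CPM per kilobase of exon was 186.8 for Sst (lowest 107, highest 259), 124 for Cck, 114 for Npy, 66.7 for Lamp5, 53.6 for Gad1, 49.0 for Pvalb, 38.9 for Gad2, 11.9 for Vip, 2.76 for Reln and 1.78 for Htr3a. The ranges of Cck (77.3 to 202) and Npy (73.1 to 180.5) overlapped for the most part. Those of Lamp5 (36.4 to 109.9), Gad1 (35.8 to 68.6), Pvalb (22.1 to 88.5) and Gad2 (25.4 to 93.1) also overlapped one another, some only in part. Vip stood apart from all of these, between 7.58 and 16.5, and from Reln (1.85 to 4.63), which overlapped with Htr3a (1.02 to 3.67). In striatum the order was Sst (306.5), Npy (144.6), Cck (97.6), Gad1 (61.5), Gad2 (47.2), Lamp5 (39.2), Pvalb (32.0), Vip (5.05), Reln (3.14) and Htr3a (1.45), and all neighbours in that order overlapped except Pvalb (15.02 to 95.9) and Vip (0.395 to 10.9). In cerebellum Pvalb had a median of 561 CPM per kilobase (116 to 940), Gad1 67.6, Gad2 26.9, Cck 19.1, Npy 17.7, Reln 13.6, Sst 2.24, Lamp5 0.560, Vip 0.0423 and Htr3a 0.0312. The lowest cerebellar Pvalb value was above the highest Gad1 value (85.8), and the other neighbours overlapped.

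**Figure D1:**
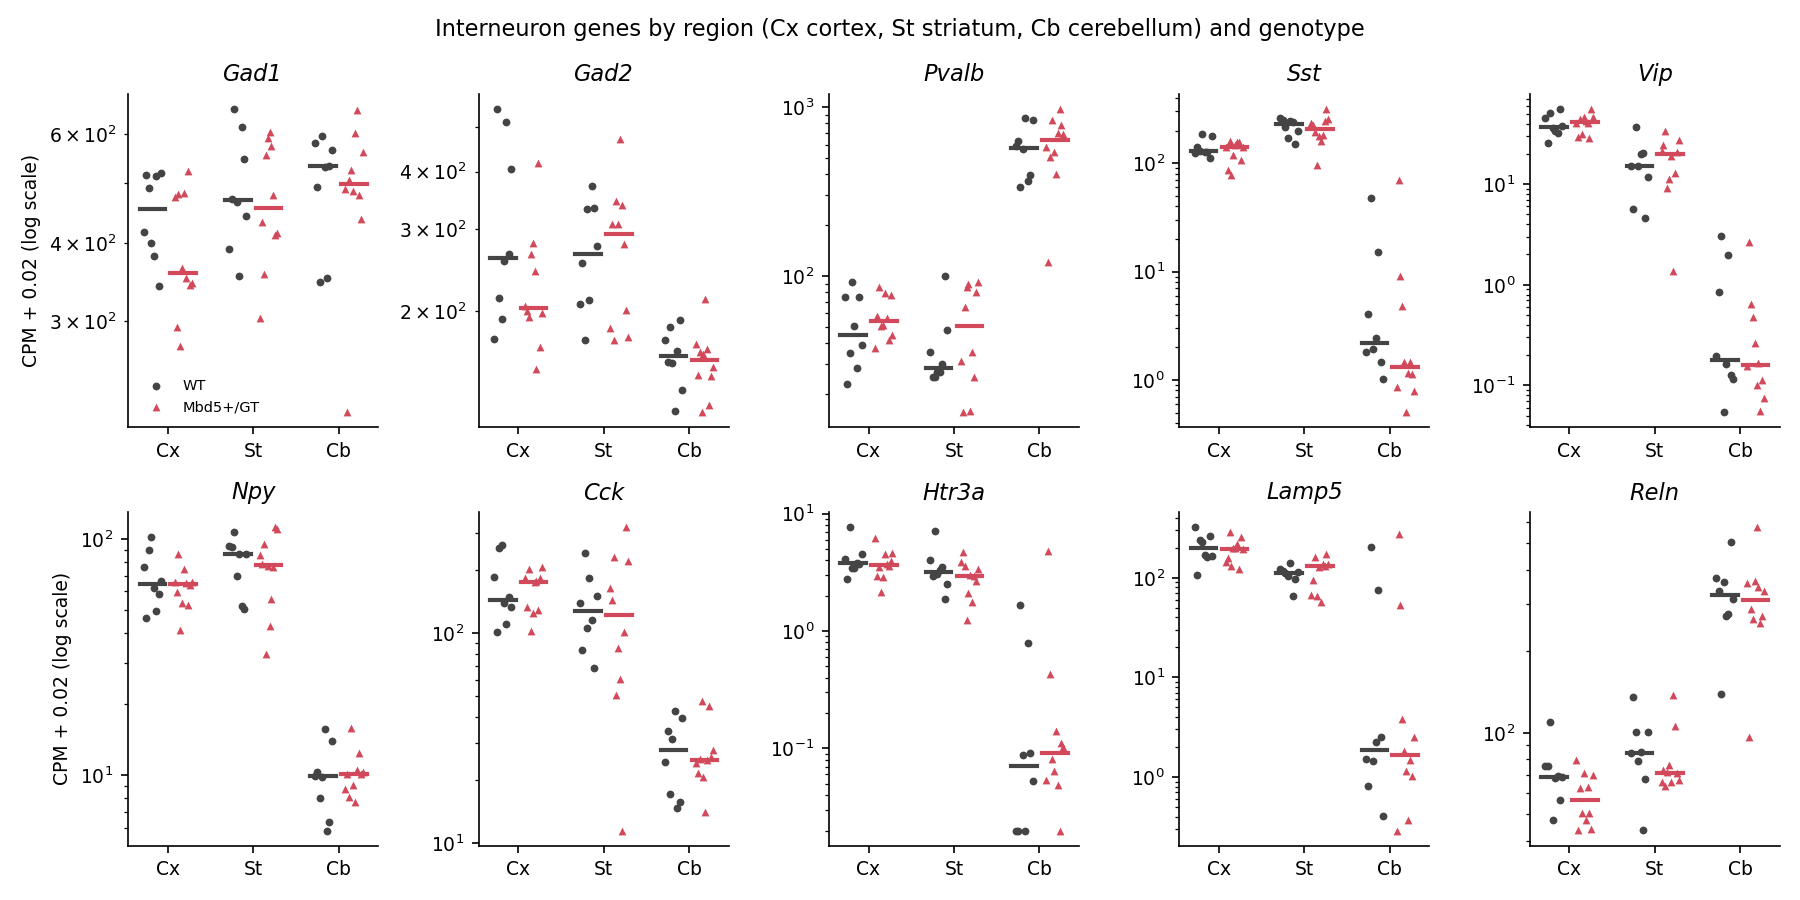
Levels of the 10 genes in all 54 libraries, 1 panel per gene. The vertical axis is TMM-normalized CPM plus 0.02 on a log scale (each panel has its own range), dots are WT and triangles Mbd5+/GT libraries, and bars are group medians. Pvalb and Reln are highest in cerebellum, while Sst, Vip, Npy, Cck and Htr3a are far lower there apart from up to 4 libraries that lie above the rest, and the genotypes overlap in every panel.

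Regions were compared among WT mice in 1 edgeR fit of all 54 libraries, in which 20477 genes were tested. Between cerebellum and cortex, 9 of the 10 genes differed at an adjusted p under 0.05, where 55.8% of all genes did. The WT libraries of these regions did not overlap for 7 of the 10 genes, against 23.1% of all genes. Pvalb and Reln were higher in cerebellum. Pvalb ran from 336.9 to 862 CPM in WT cerebellum (median 576) and from 23.0 to 92.1 CPM in WT cortex (median 44.8), a log2 difference of 3.46 (SE 0.38, adjusted p = 3.76e-11). Reln, the secreted protein that guides neuron positions, ran from 139.5 to 507 CPM (median 323) against 47.5 to 110.0 CPM (median 69.0), a log2 difference of 2.17 (SE 0.23, adjusted p = 9.68e-12). For both genes every one of the 18 mice, Mbd5+/GT included, had more in its cerebellum than in its cortex.

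All 4 neuropeptide genes were lower in cerebellum than in cortex. Vip ran from 0.0344 to 3.05 CPM in WT cerebellum (median 0.159), which is 1 to 105 counts, and from 25.8 to 55.7 CPM in WT cortex (median 36.9), a log2 difference of -5.58 (SE 0.62, adjusted p = 5.37e-11). Sst ran from 1.00 to 47.4 CPM (median 2.18) against 112 to 186.5 CPM (median 128), a log2 difference of -3.89 (SE 0.72, adjusted p = 8.49e-06). The highest cerebellar values of both genes among WT mice were those of mice 7 and 2, the WT libraries with Hox genes, and without the libraries that stood apart the log2 differences were -7.55 for Vip and -5.99 for Sst (adjusted p = 2.97e-15 and 3.90e-18). Over all alternatives the adjusted p ran from 7e-19 to 4.52e-09 for Vip and from 3.9e-18 to 0.000231 for Sst. Npy was low throughout, at 5.82 to 15.8 CPM (median 9.88) against 46.4 to 102 CPM (median 64.3), with a log2 difference of -2.79 (SE 0.22, adjusted p = 4.91e-16). Cck, which encodes cholecystokinin, ran from 14.6 to 42.8 CPM (median 27.9) against 100.9 to 264 CPM (median 144), a log2 difference of -2.60 (SE 0.36, adjusted p = 1.73e-08). In none of the 18 mice did the cerebellum hold more Sst, Vip, Npy or Cck than the cortex.

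Htr3a and Lamp5, which mark interneurons outside the parvalbumin and somatostatin classes, had low levels in most cerebellum libraries. Htr3a ran from 0 to 1.66 CPM in WT cerebellum (median 0.0506) and from 2.77 to 7.65 CPM in WT cortex (median 3.75), a log2 difference of -3.61 (SE 0.74, adjusted p = 4.08e-05). This value rests on WT mice 7 and 2, the WT libraries with Hox genes, at 1.66 and 0.771 CPM, while the other 6 WT libraries held at most 0.0707 CPM. Without the libraries that stood apart it was -7.04 (adjusted p = 9.92e-18, range over the alternatives 9.92e-18 to 0.000605), a fitted value from 0 to 2 counts per WT library. Htr3a was at 0 counts in 4 of 18 cerebellum libraries, which allows up to 0.108 to 0.110 CPM there by counting error alone (3 counts of the library's total). Lamp5 ran from 0.388 to 201.5 CPM (median 1.86) against 107 to 322 CPM (median 199.4), and the groups overlapped. Its log2 difference was -2.53 (SE 0.96, adjusted p = 0.0223), and its standard error was the largest of the 10. Its highest WT cerebellum values were again those of mice 7 and 2 (201.5 and 75.6 CPM), and without the libraries that stood apart the log2 difference was -7.34 (adjusted p = 1.21e-18). In a fit of the 2 regions alone the adjusted p of Lamp5 was 0.0577, and its range over all alternatives was 1.21e-18 to 0.0577.

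Of the GABA-synthesizing enzymes, Gad2 differed between cerebellum and the other regions and Gad1 did not pass the test. Gad1 ran from 346.6 to 596 CPM in WT cerebellum (median 532), 342 to 519.5 CPM in WT cortex (median 454) and 355 to 659.6 CPM in WT striatum (median 469.8). No comparison of Gad1 passed the test, with log2 differences of 0.16 (SE 0.16, adjusted p = 0.414) for cerebellum against cortex and 0.02 (SE 0.16, adjusted p = 0.930) for cerebellum against striatum. Gad2 ran from 122 to 191 CPM in WT cerebellum (median 159), 174 to 547 CPM in WT cortex (median 260.4) and 173 to 372 CPM in WT striatum (median 265). It was lower in cerebellum than in cortex (-1.005, SE 0.21, adjusted p = 5.62e-05) and than in striatum (-0.76, SE 0.21, adjusted p = 0.00151), though single libraries overlapped in both cases.

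Between cerebellum and striatum 8 of the 10 genes differed, where 65.5% of all genes did, and 7 of 10 did not overlap between WT groups, against 22.6% of all genes. Pvalb (3.85, SE 0.39) and Reln (1.88, SE 0.22) were again higher in cerebellum. Sst (-4.52), Vip (-4.29), Htr3a (-3.37), Npy (-3.00), Cck (-2.31) and Gad2 were lower. Without the libraries that stood apart, Sst was at -6.67, Vip at -5.70 and Htr3a at -6.48 (adjusted p = 1.40e-19, 4.43e-12 and 1.14e-16, and at most 4.33e-05, 7.19e-06 and 0.00133 over the alternatives). These comparisons share the cerebellum libraries with those against cortex. Lamp5 missed the threshold (log2 difference -1.61, SE 0.93, adjusted p = 0.125) and passed it once the mouse was included as a block (-4.27, adjusted p = 0.00173) or the libraries with foreign markers were left out (-6.30, adjusted p = 3.48e-17), with a range of 3.48e-17 to 0.196 over all alternatives. The plain difference of mean log2 CPM between the same WT libraries, with no block and none left out, was -4.70.

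Cortex and striatum differed far less. Only Vip of the 10 genes passed the test, where 47.0% of all genes did, and none of the 10 was free of overlap between the WT groups, against 7.12% of all genes. Vip ran from 4.63 to 37.0 CPM in WT striatum (median 15.1) and was higher in cortex by 1.29 on the log2 scale (SE 0.50, adjusted p = 0.0282). It was higher in cortex than in striatum in 18 of 18 mice, yet its adjusted p ran from 0.00036 to 0.0983 over the alternatives. Sst pointed the other way, with 149 to 260.4 CPM in WT striatum (median 229.9) and a log2 difference of -0.63 (SE 0.64, adjusted p = 0.437). It was higher in striatum in 17 of 18 mice, and in a fit without the cerebellum libraries, whose Sst counts vary most, the difference of -0.67 had an SE of 0.18 and an adjusted p of 0.00181 (range over the alternatives 0.00181 to 0.541). Lamp5 ran from 66.0 to 142 CPM in WT striatum (median 113) and was higher in cortex in 16 of 18 mice. Its log2 difference of 0.92 (SE 0.91) had an adjusted p of 0.421, against 0.00112 in the fit without cerebellum (0.88, SE 0.22) and a range of 0.00112 to 0.538 over the alternatives. Htr3a was higher in cortex in 15 mice, Reln in striatum in 14 and Npy in striatum in 13, with log2 differences of 0.24 (SE 0.63), -0.28 (SE 0.22) and -0.21 (SE 0.20) that did not pass. Gad1 (-0.14), Gad2 (0.25), Pvalb (0.40) and Cck (0.30) had adjusted p between 0.334 and 0.488.

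**Figure D2:**
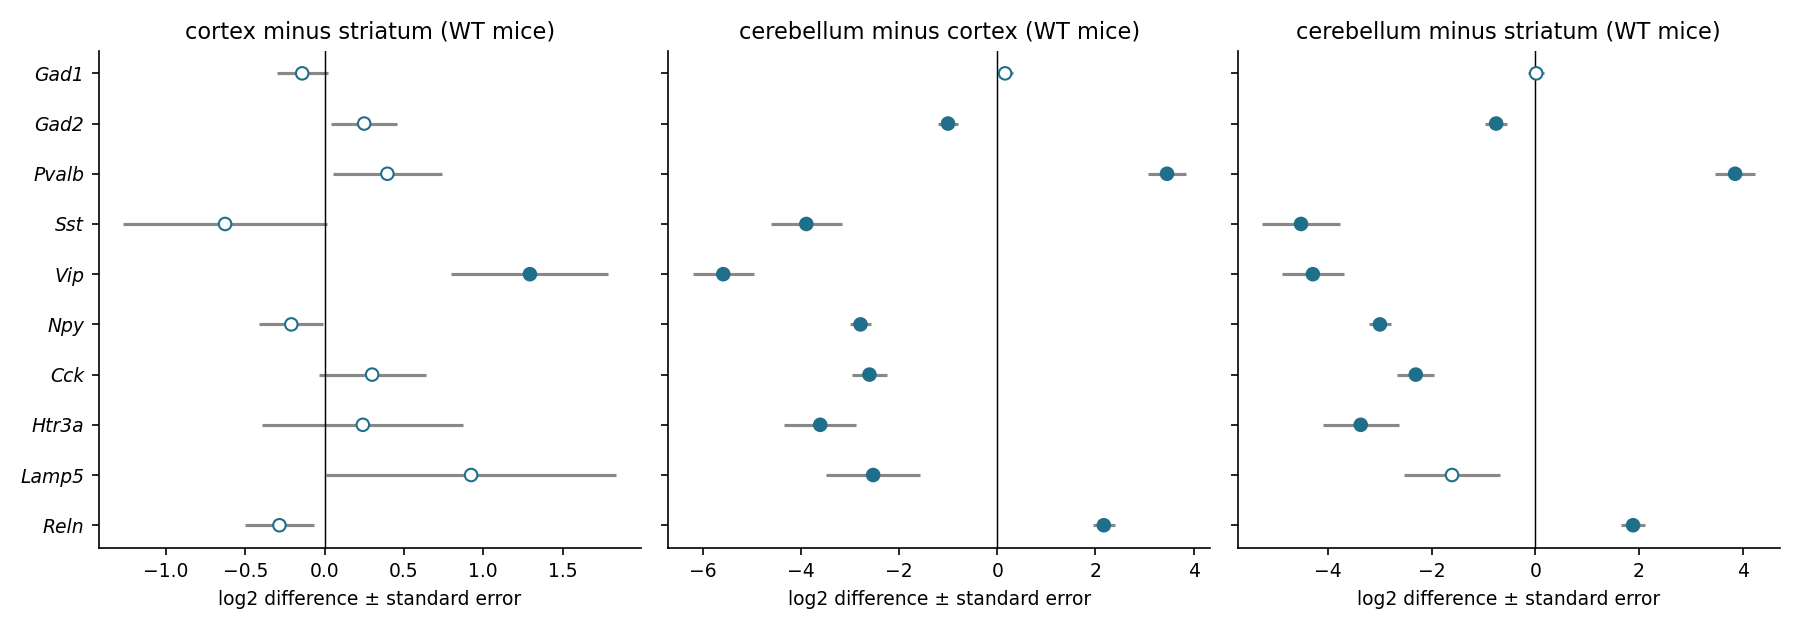
Log2 differences of the 10 genes between regions in WT mice, from the fit of all 54 libraries. The horizontal axis is the log2 difference with its standard error, scaled for each panel, and filled points had an adjusted p under 0.05. Only Vip is filled between cortex and striatum, while against cerebellum Pvalb and Reln lie to the right, Gad1 near 0 and most others to the left.

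Other genes of the same system were counted by list, beside the shares of all genes given above. Of all 20477 genes, 5649 were lower and 5770 higher in WT cerebellum than in cortex at an adjusted p under 0.05. Of 17 genes of interneuron identity (transcription factor genes and Adarb2, of the RNA-editing deaminase family), 13 were lower and 2 higher in WT cerebellum than in cortex (median log2 difference -4.84, against 0.02 over all genes). Among the largest differences were those of Nkx2-1 (0 CPM in WT cerebellum, 1.76 in WT cortex), which specifies cells of the medial ganglionic eminence, and Dlx5 (0.0113 against 6.37), both as group means. Of 7 genes for GABA packaging, uptake and breakdown, 1 differed there, the dehydrogenase gene Aldh9a1 (0.45, SE 0.08, adjusted p = 2.22e-06). Of 21 other subclass genes, 11 were lower and 6 higher in cerebellum. Calb2, the gene of calretinin, had a mean of 492 CPM in WT cerebellum and 24.2 in WT cortex (4.35, SE 0.66), while Tac1 (-4.62, SE 0.83) and Crhbp (-4.51, SE 0.62) were lower in cerebellum.

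Of all 20477 genes, 6684 were lower and 6734 higher in WT cerebellum than in striatum at an adjusted p under 0.05. Against striatum, 12 of the 17 identity genes were lower in cerebellum and 2 higher (median -5.78, against -0.02 over all genes), led by Nkx2-1 (0 against a mean of 3.79 CPM), Dlx5 (0.0113 against 12.6) and Dlx6 (0.0439 against 32.0). The GABA handling list gave 2 higher, among them the plasma membrane GABA transporter gene Slc6a13 (0.80), and 1 lower, the vesicular transporter gene Slc32a1 (-0.68). The other subclass genes gave 6 higher and 10 lower, among them Tac1 (-5.29), Crhbp (-3.94) and Tac2 (-3.84). Between cortex and striatum 47.0% of all genes differed, 4988 being higher and 4644 lower in cortex. Of the 17 identity genes 4 were higher and 4 lower in cortex, which is near that share. Satb1 (1.46, SE 0.24) and Maf (1.22, SE 0.15), which act in interneurons of the medial eminence, were higher, and Dlx6 (-1.32, SE 0.28) was lower. Of the GABA handling genes 3 were higher and 2 lower, including Slc6a13 (1.07), Slc32a1 (-0.89) and Aldh5a1 (0.33). Of the other subclass genes 6 were higher and 2 lower, with Hpse (1.75) higher and Calb2 (-1.64) and the enkephalin gene Penk (-1.64) lower in cortex.

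Leaving out the libraries that stood apart, an alternative chosen after the values were seen, altered the picture of the members in specific ways. The 4 cerebellum libraries with Hox genes held 53.1 to 274 CPM of Lamp5, where the other 14 held 0.270 to 3.84. They held 9.08 to 70.1 CPM of Sst against 0.486 to 4.82, and 0.412 to 4.76 CPM of Htr3a against 0 to 0.122. The medians of Pvalb (352 against 663 CPM), Reln (207 against 339.6 CPM) and Gad1 (349 against 532 CPM) were lower in them, with overlapping ranges. Gad2 was within the range of the others (145 to 185 against 121 to 212 CPM). The 4 cortex libraries with the most Gad2 (405 to 547 CPM) had striatal marker sums of 1089 to 1860 CPM, and 3 of them were the WT libraries named above. WT mouse 1 had a striatal marker sum of 1446 CPM in cortex with 256 CPM of Gad2. Markers of globus pallidus and ventral forebrain summed to 57.7 to 92.1 CPM in those 4 libraries. The other cortex libraries had at most 51.0 CPM of them. Without the 9 libraries (3 of cortex, 2 of striatum and 4 of cerebellum) set apart by striatal markers or Hox genes, which leaves Mbd5+/GT mouse 5, the cortex library at 1089 CPM, in the fit, cerebellum exceeded cortex in Gad1 (0.47, adjusted p = 0.00898, range over the alternatives 0.00898 to 0.491). Gad2 no longer passed between cerebellum and cortex (-0.47, adjusted p = 0.0607, range 6.11e-06 to 0.0607), and its difference between cortex and striatum turned from 0.25 to -0.32. Between cortex and striatum Vip and Lamp5 (1.04, adjusted p = 0.0101) then passed. The part of the foreign cells in each difference was not tested.

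**Figure D3:**
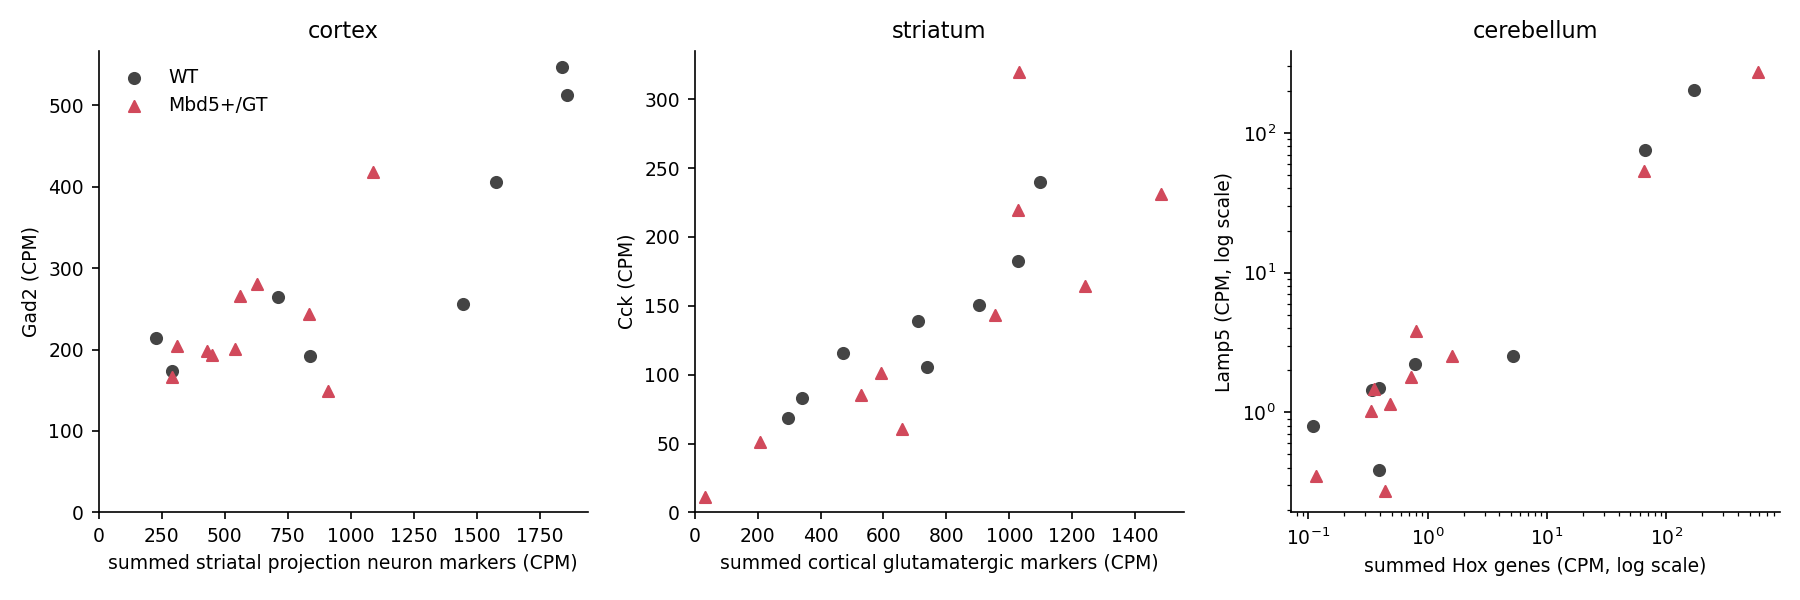
Members beside markers of other cells, 1 point per library (dots WT, triangles Mbd5+/GT). Left, Gad2 in cortex against the summed striatal projection neuron markers (CPM). Middle, Cck in striatum against the summed cortical glutamatergic markers (CPM). Right, Lamp5 in cerebellum against the summed Hox genes (CPM, log scales), where 4 libraries lie above 50 CPM of Hox genes and above 53 CPM of Lamp5.

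The striatum libraries also differed in cortical glutamatergic markers, made by cells that use Cck as well. The Mbd5+/GT library of mouse 4 had the lowest sum of those markers (32.4 CPM), the lowest Cck (11.5 CPM) and the lowest Vip (1.34 CPM) of the region. The striatum library with the most Cck (319.7 CPM, Mbd5+/GT mouse 6) had a marker sum of 1030 CPM.

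No member passed the test between genotypes in any region. Each region was fitted alone with genotype and surrogate variables as terms. In cortex 0 of 10 had an adjusted p under 0.05, where 0.0107% of 18661 genes did. At an unadjusted p under 0.05 there were 4 of 10, against 8.47% of all genes, and all 4 were lower in Mbd5+/GT, against 4.51% of all genes. Of the 10 log2 differences 9 were negative, where 9732 of 18661 genes were. Their median was -0.19, against -0.0042 over all genes. The genotypes overlapped for every member. The members, and the gene lists used below, were chosen with earlier results of these data known. Several members share cells and are not independent, so these shares are descriptions only.

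Npy had the smallest standard error. Its CPM in cortex ran from 41.4 to 86.6 (median 64.7) in Mbd5+/GT and from 46.4 to 102 (median 64.3) in WT mice, and the log2 difference after the surrogate variables was -0.20 (SE 0.041, unadjusted p = 0.000162, adjusted p = 0.20, edgeR). The medians were therefore about equal before those variables were fitted. DESeq2 with the same terms gave Npy an adjusted p of 0.0114 (range over the alternatives 0.0114 to 1), while an exact permutation test of log2 CPM with no such terms gave a difference of -0.11 and a 2-sided p of 0.518. Sst, the partner of Npy in many cortical interneurons, ran from 77.3 to 159 CPM (median 140.9) against 112 to 186.5 (median 128), with a log2 difference of -0.19 (SE 0.060, unadjusted p = 0.00542, adjusted p = 0.406). Its exact permutation p was 0.369.

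Reln and Gad2 made up the rest of the 4. Reln ran from 43.8 to 79.4 CPM in Mbd5+/GT cortex (median 56.6) and from 47.5 to 110.0 in WT cortex (median 69.0), a log2 difference of -0.30 (SE 0.12, unadjusted p = 0.0212, adjusted p = 0.496). The exact permutation p was 0.0845, and within litters 1, 2 and 3 the difference was -0.21, -0.30 and -0.30. Gad2 ran from 149.5 to 417 CPM (median 202) against 174 to 547 (median 260.4), a log2 difference of -0.28 (SE 0.12, unadjusted p = 0.0397, adjusted p = 0.553) with an exact permutation p of 0.131. Without the 3 WT libraries with over 1500 CPM of striatal markers the difference of Gad2 was -0.16 (SE 0.17), that of Reln -0.22 (SE 0.13), that of Sst -0.12 (SE 0.071) and that of Npy -0.16 (SE 0.060). The 7 striatal markers had a median log2 difference of -0.44 in cortex, all 7 negative and none with an unadjusted p under 0.05, and their part in the Gad2 difference was not tested. Choroid plexus markers moved the other way, with 4 of 5 higher in Mbd5+/GT cortex at an unadjusted p under 0.05 (median log2 difference 1.43). Of all 18661 genes, 739 were higher at that level. As markers of 1 tissue, the 5 are not independent. Their sum ran from 8.12 to 1274 CPM in Mbd5+/GT and from 20.8 to 239 CPM in WT cortex, and their part in the cortical differences was not tested. The library with the highest sum, that of Mbd5+/GT mouse 1, was also the one with hypothalamus markers, of which 1 of 5 was tested (Pmch, log2 difference 3.27, unadjusted p = 0.0301). It held the lowest cortical Gad1 (273.5 CPM), Sst (77.3 CPM), Npy (41.4 CPM) and Htr3a (2.13 CPM). Without it, a setting chosen after its values were seen, the differences were -0.17 for Gad2 (SE 0.11), -0.31 for Reln (SE 0.13), -0.14 for Sst (SE 0.055), -0.21 for Npy (SE 0.049), -0.16 for Gad1 (SE 0.11) and -0.22 for Htr3a (SE 0.15), and no member was called.

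The other cortical differences were -0.22 for Gad1 (SE 0.11), -0.24 for Htr3a (SE 0.14), -0.17 for Lamp5 (SE 0.11), -0.12 for Cck (SE 0.074), -0.01 for Vip (SE 0.13) and 0.19 for Pvalb (SE 0.15), with adjusted p from 0.627 to 0.995. Pvalb, the only member with a positive difference, ran from 37.6 to 85.5 CPM (median 53.9) in Mbd5+/GT and from 23.0 to 92.1 (median 44.8) in WT mice, and was higher in Mbd5+/GT in every litter (0.31, 0.46 and 0.23). Each litter held 1 of the WT libraries above 1500 CPM of striatal markers. Those libraries had 23.0 to 38.9 CPM of Pvalb, against 35.05 to 92.1 CPM in the other cortex libraries. Over the alternative fits the log2 difference of Pvalb ran from 0.02 to 0.20. Litter values without those libraries were not computed. By litter means without surrogate variables, 6 of the 10 genes were lower in Mbd5+/GT in all 3 litters: Gad1, Gad2, Sst, Npy, Htr3a and Reln, where 17.6% of all genes were. The value of litter 2 rests on 1 WT library, that of WT mouse 4, which is one of the 3 above 1500 CPM of striatal markers. The others, those of WT mice 2 and 6, are in litters 1 and 3. In litter 1, WT mouse 2 had 512 CPM of Gad2. Its WT littermates had 256 and 265 CPM and the Mbd5+/GT mice 244 to 280 CPM. In litter 3, WT mouse 6 had 547 CPM of Gad2. Its WT littermates had 174 to 214 CPM and the Mbd5+/GT mice 194 to 205 CPM. The part of these libraries in the litter differences was not tested.

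In striatum no member had an unadjusted p under 0.05, where 7.44% of 18546 genes did (3.20% lower in Mbd5+/GT) and 0.00539% had an adjusted p under 0.05. The differences were negative for 7 and positive for 3, where 9911 of 18546 genes were negative. They ran from -0.28 for Cck (SE 0.27) to 0.16 for Vip (SE 0.23). Npy had the lowest unadjusted p (0.134), with a difference of -0.11 (SE 0.067). Pvalb had the largest standard error of the 10. It ran from 15.6 to 91.6 CPM (median 50.6) in Mbd5+/GT and from 25.2 to 99.8 (median 28.5) in WT mice, and its difference of -0.04 had a standard error of 0.34. Gad1 (-0.02, SE 0.12) and Gad2 (0.02, SE 0.10) lay near 0.

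In cerebellum 9 members passed the filter on low counts and Htr3a did not. None of the 9 had an unadjusted p under 0.05, where 2.75% of 18160 genes did (1.78% lower in Mbd5+/GT) and 0.00551% had an adjusted p under 0.05. The differences were -0.06 for Gad1 (SE 0.077), -0.01 for Gad2 (SE 0.056), -0.09 for Pvalb (SE 0.10), -0.04 for Reln (SE 0.072), -0.0051 for Npy (SE 0.073) and -0.08 for Cck (SE 0.11). The rare ones had wide errors, with -0.86 for Vip (SE 0.49), -0.53 for Sst (SE 0.39) and 0.40 for Lamp5 (SE 0.71), and these are the genes that the libraries with Hox genes held most of. Vip had 1 to 105 counts per cerebellum library, so counting error adds to its spread.

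**Figure D4:**
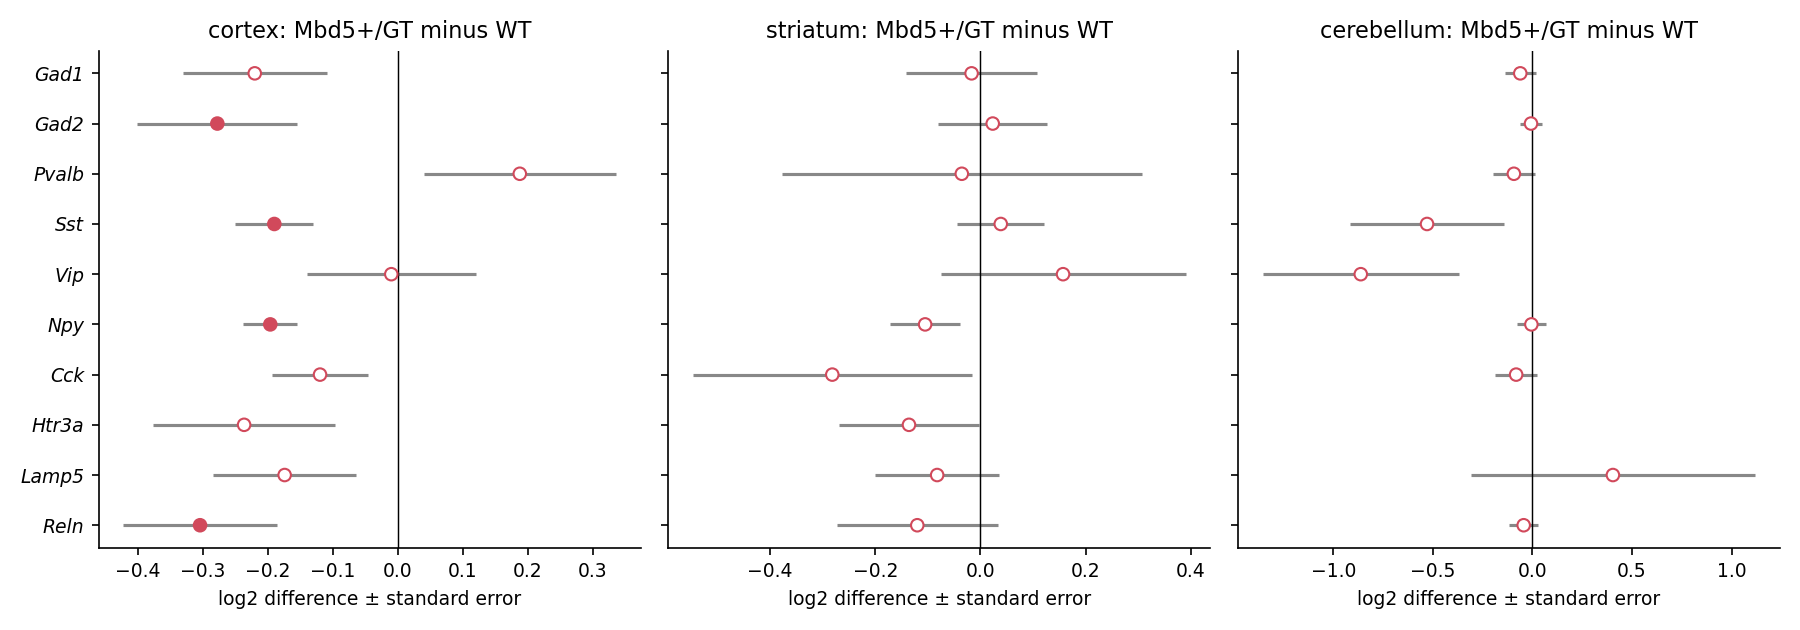
Log2 differences between Mbd5+/GT and WT mice for the 10 genes in each region, with standard errors, from the region's own fit with surrogate variables. Filled points had an unadjusted p under 0.05, and no adjusted p was under 0.05. In cortex 9 of 10 points lie left of 0, where 9732 of 18661 genes had a negative difference. The axes differ between panels, and Htr3a is missing from cerebellum because it did not pass the filter.

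The genotype difference was not shown to vary between regions. No member had an unadjusted p under 0.05 for the interaction, where 4.22% of all genes did for cortex against striatum, 1.11% for cerebellum against cortex and 2.68% for cerebellum against striatum. The lowest p was that of Gad2 between cortex and striatum, where the effects differed by -0.51 (SE 0.28, unadjusted p = 0.0731, adjusted p = 0.989, edgeR). Without the libraries that stood apart this difference was 0.05. Between females and males no member had an unadjusted p under 0.05 either, where the share of all genes was 1.30% (cortex), 1.62% (striatum) and 0.540% (cerebellum). The largest contrast in cortex was Htr3a (-0.43 in females, 0.20 in males, p of the difference 0.0991 unadjusted), followed by Cck (-0.27 and 0.36, p = 0.0983 unadjusted). Litter 1 was all female and litter 2 all male, so sex and litter are partly confounded.

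Of the other interneuron genes, none passed the adjusted threshold between genotypes. In cortex 2 of 17 identity genes and 5 of 21 other subclass genes were lower at an unadjusted p under 0.05 (4.51% of all genes were), none was higher, and 0 of 7 GABA handling genes reached it. Dlx6, a homeobox gene of GABA neurons, had a log2 difference of -0.41 (SE 0.092, unadjusted p = 0.000297, adjusted p = 0.212). It was followed by Maf (-0.16), the cannabinoid receptor gene Cnr1 (-0.25), Hpse (-0.34) and Penk (-0.51). Dlx6 and Penk were also 2 of the genes higher in striatum than in cortex, and Penk is abundant in striatal projection neurons. In striatum 2 of 17 identity genes, 1 of 21 subclass genes and 0 of 7 GABA handling genes were higher at that level, where 4.24% of all genes were, and none was lower. They included Maf (0.21) and the neuregulin receptor gene Erbb4 (0.25). In cerebellum 2 of the 10 identity genes tested and 3 of the 18 subclass genes tested were lower at that level, where 1.78% of all genes were, and 0 of 7 GABA handling genes reached it. They included Maf (-0.18), Crhbp (-1.25), Ndnf (-0.20) and Cox6a2 (-0.55), and none was higher. Maf thus reached this level in every region, negative in cortex and cerebellum and positive in striatum, with adjusted p of 0.406, 1.000 and 0.629.

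Members known to share cells were compared across the 18 mice within a region, with genotype means removed, as 12 correlations of log2 CPM with 100000 permutations and Benjamini-Hochberg adjustment. In striatum Sst and Npy had Pearson's r = 0.80 (permutation adjusted p = 0.00048) and Spearman's rho = 0.72 (permutation adjusted p = 0.0058), and r was 0.60 without the 2 libraries farthest from the median of Sst. Vip and Htr3a had r = 0.74 (permutation adjusted p = 0.0016) and rho = 0.87 (permutation adjusted p = 0.00024), with r = 0.76 without the 2 libraries farthest from the median of Vip. Gad1 and Gad2 had r = 0.63 (permutation adjusted p = 0.012) and rho = 0.60 (permutation adjusted p = 0.037), with r = 0.84 without the 2 libraries farthest from the median of Gad1. Within litters 1 and 3 the r values were 0.74 and 0.47 for Sst and Npy, 0.86 and 0.81 for Vip and Htr3a, and 0.88 and 0.15 for Gad1 and Gad2. Litter 2 held too few mice for a value. Without the libraries that stood apart r was 0.89 for Sst and Npy, 0.70 for Vip and Htr3a and 0.87 for Gad1 and Gad2. Vip in striatum also went with the cortical glutamatergic markers. It was at 1.34 CPM with 32.4 CPM of those markers (Mbd5+/GT mouse 4) and 4.63 CPM with 297 (WT mouse 3), and at 37.0 CPM with 1098 (WT mouse 7) and 33.5 CPM with 1482 (Mbd5+/GT mouse 10). The part of cortical tissue in the correlation of Vip and Htr3a was not tested.

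In cortex Sst and Npy had r = 0.53 (permutation adjusted p = 0.041) and rho = 0.47 (permutation adjusted p = 0.098), and Vip and Htr3a had r = 0.53 (permutation adjusted p = 0.041) and rho = 0.53 (permutation adjusted p = 0.078). Without the 2 libraries farthest from the median of the pair's first gene, r was 0.41 and 0.55. Within litters 1 and 3 it was 0.85 and 0.47 for the first pair and 0.41 and 0.75 for the second. Gad1 and Gad2 did not pass there (r = 0.44, rho = 0.37, permutation adjusted p = 0.095 and 0.20), nor did Lamp5 and Reln in cortex (r = 0.01, rho = -0.02, permutation adjusted p = 0.98 and 0.95) or striatum (r = 0.43, rho = 0.35, permutation adjusted p = 0.095 and 0.20). In cerebellum the libraries fell into those with and those without Hox genes, so no pooled value is given. Among the 14 libraries without them r was -0.31 for Vip and Htr3a, -0.07 for Lamp5 and Reln and 0.50 for Sst and Npy, and none of these passed the adjusted threshold.

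**Figure D5:**
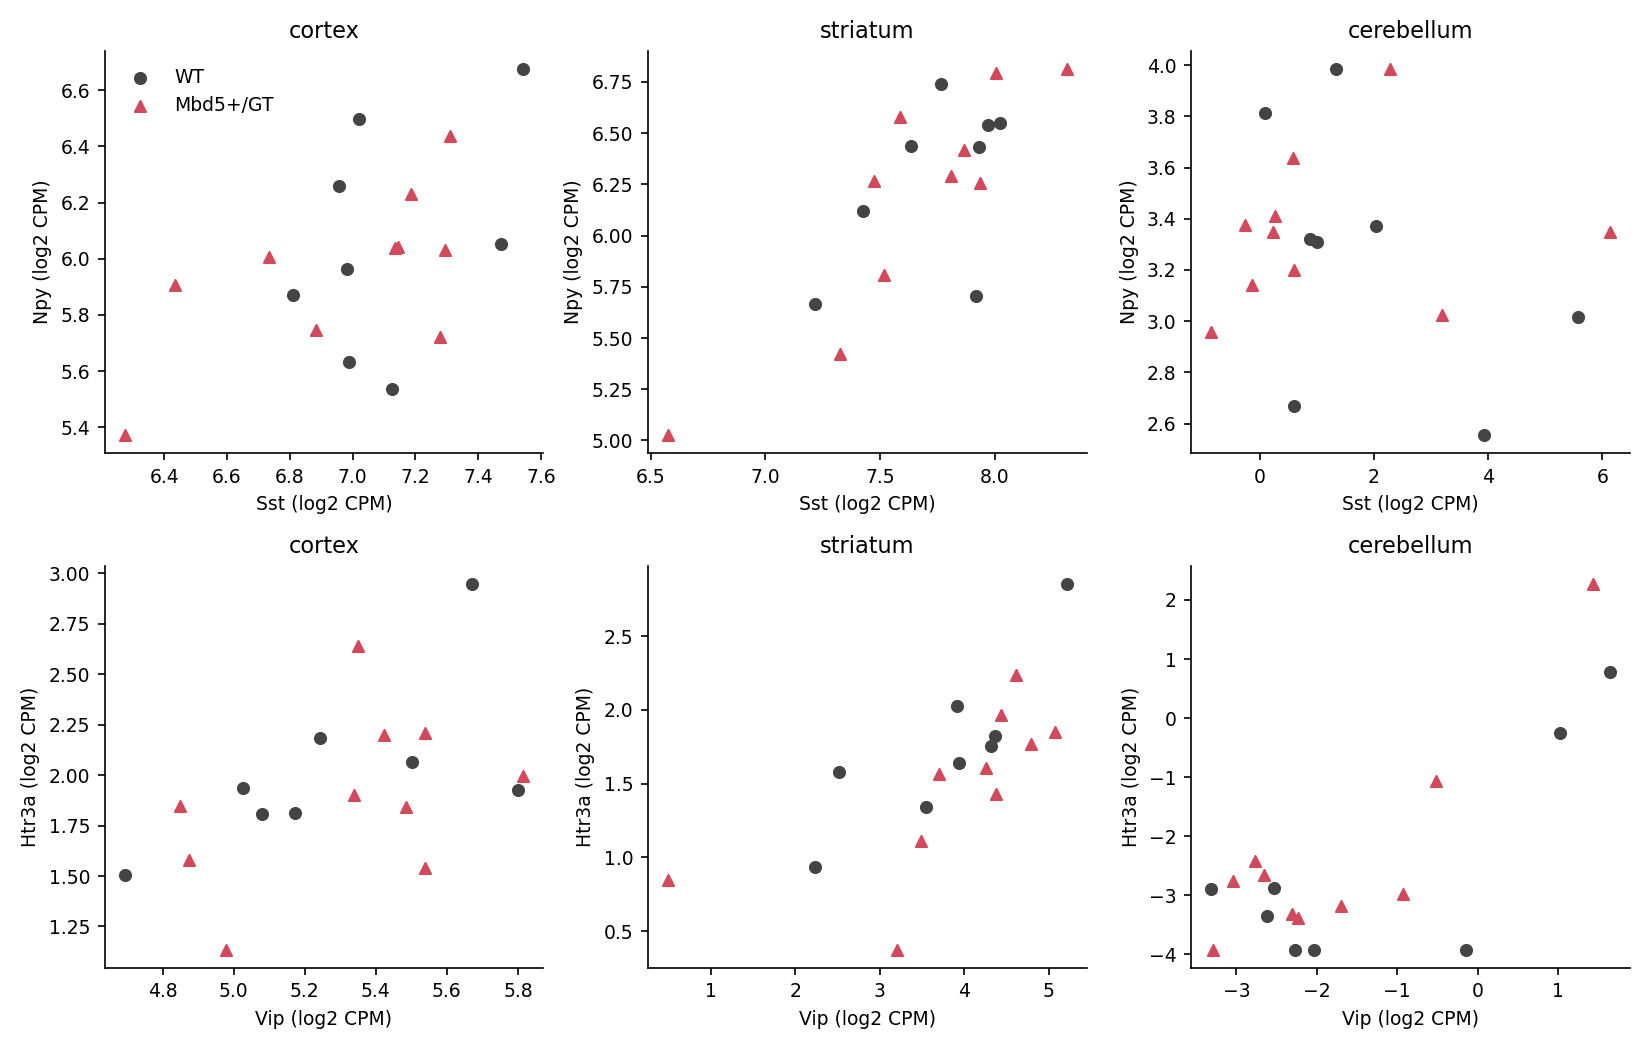
Sst against Npy (top) and Vip against Htr3a (bottom) in log2 CPM, 1 point per library (dots WT, triangles Mbd5+/GT), by region. Both pairs rise together in striatum (r = 0.80 and 0.74) and more loosely in cortex (r = 0.53 for both), and in cerebellum the points with high Vip and Htr3a are mostly the libraries with Hox genes.

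The genes whose cortical pattern was most like that of a member were named from 12650 genes with a mean of at least 100 counts, by Pearson's r over the 18 cortex libraries with genotype means removed. The r values are descriptions, since the libraries share depth and tissue composition. For Gad2 they were Gm14204 (0.94), Abat (0.94), which breaks GABA down, and Sox1ot (0.93). For Npy and Cck each was the other's closest gene (0.94). Pvalb was nearest to Cox6a2 (0.91), a mitochondrial subunit gene on the subclass list, then to Ankrd40 (0.90) and Vcpkmt (0.90). Sst was nearest to Gapdh (0.96), Ndufa10 (0.95) and Pkm (0.95), genes of glycolysis and respiration that every cell uses. The closest genes were Fam20c (0.88) for Gad1, Btbd10 (0.86) for Vip, Egln3 (0.91) for Htr3a, Catsperz (0.93) for Lamp5 and Pam (0.90) for Reln, the last an enzyme that amidates neuropeptides.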

How the data were processed

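RNA-seq counts of cortex, striatum and cerebellum from 10 Mbd5+/GT and 8 WT mice were analysed (54 libraries). The authors aligned reads with STAR (2.4.2) to GRCm38 with Ensembl annotation and deposited raw whole-number counts per gene from its GeneCounts option. The strand column used is not given in the sources used here. The 92 ERCC spike-ins entered neither library sizes nor tests. All columns were used. The members and gene lists were chosen with earlier results of these data known.

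The filter kept genes over 4 counts in 8 or more libraries. Tests were edgeR (4.0.16) quasi-likelihood tests (TMM, robust, Benjamini-Hochberg over all genes tested), in R 4.3.3. Between genotypes, each region was fitted alone with 4 (cortex), 4 (striatum) or 2 (cerebellum) surrogate variables (sva 3.50.0). Differences between regions, interactions and sex contrasts had no surrogate variables. The standard error was the log2 difference over the square root of F. P-values of exact permutation tests were 2-sided, over 43758 arrangements of mice. The scripts were tested on simulated data. log2 CPM had a prior count of 2. Promoter sequences are from RefSeq. Of the gene identifiers, 46574 matched the annotation. Pairs of libraries of the same group had a median chi-square per gene of 57.21, above the level of counting error alone. The parts of depth and of the spread between mice in the precision of single genes were not tested.

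Mouse numbers pair the regions, because each number is 1 animal. Deviations from group means correlated within mice with a median of 0.05 (cortex and striatum), 0.16 (cerebellum and cortex) and 0.03 (cerebellum and striatum). Alternatives were DESeq2 (1.42.0), its size factors, other filters, other surrogate variables, litter and sex as terms, a block by mouse and left-out libraries. Named genes were all 10 members, at most 5 listed genes with the lowest unadjusted p under 0.05 between genotypes in a region, at most 3 called genes of a list between regions, and the 3 genes most like a member in cortex. Some listed genes that this rule names are not reported here.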

Additional observations from a re-analysis of the deposited data

Results flagged for a closer look

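Among 60 groups of values (10 genes, 3 regions and 2 genotypes), 7 had a highest or lowest library whose gap to the next in log2 CPM, divided by the whole range in log2 CPM, exceeded Dixon's 95% limit. The gap ratios below are on that log2 scale, and the levels beside them are in CPM. Chance alone flags about 1 in 20 groups. Of the 7, 4 were the cerebellum library of Mbd5+/GT mouse 9, the library with the most Hox gene reads and almost no granule cell markers. It was the lowest for Gad1 (214 CPM, next 439, gap ratio 0.642), Pvalb (121 CPM, next 401, gap ratio 0.573) and Reln (96.2 CPM, next 254, gap ratio 0.544), and the highest for Htr3a (4.76 CPM, next 0.412, gap ratio 0.539). In striatum, Pvalb was highest in WT mouse 3 (99.8 CPM, next 47.6, gap ratio 0.538), and Vip was lowest in Mbd5+/GT mouse 4 (1.34 CPM, next 9.13, gap ratio 0.592), the library with the fewest reads of cortical glutamatergic markers. In cortex, Htr3a was highest in WT mouse 7 (7.65 CPM, next 4.47, gap ratio 0.531). The causes were not tested.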

How the results depend on the processing

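No member was called between genotypes under any alternative except DESeq2, which called 1, Npy in cortex. The main cortex fit called 0.0107% of all genes. The share of all genes called under the alternatives is not given here. Neither this call nor the counts of members below can therefore be set against such a share. Between WT cortex and striatum, where 1 member was called, the count was 0 with DESeq2, 0 without a filter, 0 without the repeated libraries, 2 without the libraries that stand apart in markers and 3 in a fit of the 2 regions only. The smaller sample number of the left-out sets is part of their construction, and the other causes were not tested. Of 12 correlations 7 passed by Pearson's r, against 4 without the libraries that stand apart. The 7 include Vip with Htr3a and Lamp5 with Reln over all cerebellum libraries, which fell into those with and those without Hox genes. By Spearman's rho only Sst with Npy, Vip with Htr3a and Gad1 with Gad2 in striatum passed. Without the libraries that stand apart, the r of Sst and Npy in cerebellum turned to 0.50 and that of Vip and Htr3a to -0.31. With the mouse as a replicate block, the log2 difference of Lamp5 between cerebellum and striatum became -4.27 and it was called (the plain difference of mean log2 CPM with no block was -4.70), and no other call between regions or of an interaction changed. Within a single region each mouse has 1 library, so no block was possible for the genotype tests.

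None of the genotype differences that changed sign was called in any of these fits. With 1 surrogate variable fewer they were Gad2 (-0.04), Pvalb (0.54), Lamp5 (0.086) in striatum and Npy (0.043), Cck (0.024) in cerebellum. As plain differences of mean log2 CPM, used for both exact permutation tests they were Vip (0.046) in cortex, Pvalb (0.32), Sst (-0.10), Lamp5 (0.016) in striatum and Pvalb (0.016), Npy (0.088), Cck (0.038), Lamp5 (-0.42) in cerebellum. With litter and sex as covariates they were Vip (0.0099) in cortex, Gad2 (-0.0075), Pvalb (0.32), Sst (-0.16) in striatum and Gad2 (0.012), Lamp5 (-1.35) in cerebellum. Without surrogate variables they were Vip (0.039) in cortex, Pvalb (0.42), Sst (-0.07), Cck (0.023), Lamp5 (0.070) in striatum and Pvalb (0.093), Npy (0.037), Cck (0.0055), Lamp5 (-0.062) in cerebellum. Without litter 2 they were Gad1 (0.11), Gad2 (-0.047), Pvalb (0.60), Sst (-0.069) in striatum and Npy (0.12), Cck (0.033), Reln (0.013) in cerebellum. Without the cortex library over 100 CPM of hypothalamus markers it was Vip (0.0011) in cortex. Without the cerebellum libraries over 50 CPM of Hox genes they were Gad2 (0.0012), Pvalb (0.054) in cerebellum. Without the striatum libraries under 1000 CPM of striatal markers they were Gad1 (0.089), Pvalb (0.069), Sst (-0.020), Vip (-0.021) in striatum. Between WT cerebellum and striatum, Gad1 (0.02) turned to -0.011 with DESeq2 and with its size factors, -0.0061 in the fit of 2 regions, -0.073 without litter 2 and -0.038 without the repeated libraries. Without the libraries that stand apart, Gad2 turned to -0.32 between WT cortex and striatum, and its difference in genotype effect to 0.047 for cortex minus striatum and -0.083 for cerebellum minus cortex. The cause was not tested. Leaving out libraries by their markers and fitting 2 regions alone were chosen after seeing the data. Counting error limits Vip and Htr3a in cerebellum.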
